A study of Mus musculus with 4 samples.

Results

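The collagen and integrin genes are described here by the H3K27me2 peaks assigned to them in mouse zygotes. A gene was taken as a member when its symbol was that of a collagen chain or of an integrin alpha or beta subunit, which gave 71 genes (44 collagen and 27 integrin genes). A peak was taken when the authors' annotation assigned it to one of these genes, that is, to the gene of the nearest transcript start. This held for 323 of the 56036 peaks in 4 lists, and 57 of the 71 genes (80.3%) had at least 1 peak, against 45.3% of all protein-coding genes. A peak of a gene is in what follows one that was assigned to it, so a gene listed without a peak can still hold one that was assigned to a neighbour.

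H3K27me2, the dimethylated form of lysine 27 of histone H3, was profiled by ULI-NChIP-seq, in which native chromatin of very few cells is cut with MNase and precipitated with an antibody. The zygotes were at pronuclear stage PN5 and were freed of polar bodies. Eggs of the strain C57BL/6J had been fertilized in vitro by sperm of the strain PWK/PhJ. All mothers had floxed Ezh2 alleles (Ezh2 fl/fl), and those of the Ezh2m-/p+ group had Gdf9-Cre in addition, in which the oocyte promoter of Gdf9 drives Cre, so that the floxed exon is deleted in the egg. The sperm allele of Ezh2 was intact in both groups. Zygotes were pooled, and each genotype had 1 H3K27me2 library and 1 input library. There was thus no replicate check on any difference between the genotypes, and no p-value was computed. Reads were assigned to the maternal (C57BL/6J) or paternal (PWK/PhJ) genome by strain variants, and peaks were listed for each parental genome, so the maternal and paternal lists of a genotype share a library. Genotypes are named as the lists are named, and every direction between them rests on those names. The study's own sources differ here, since its numbers of peaks go with these names while its charts of annotation classes go with the names exchanged. If the names were exchanged, every direction between the genotypes would turn round. The lists hold neither reads over the deleted exon nor expression values, so neither the genotype nor the cell type could be checked in them.

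Collagens are triple-helical proteins of the extracellular matrix. They form fibrils, the network of basement membranes, beaded filaments, or chains that coat fibrils or span the plasma membrane. Integrins are cell surface receptors made of an alpha and a beta subunit, and they bind collagens, laminins, fibronectin or counter-receptors on other cells. H3K27me2 is laid down by PRC2, the complex that contains EZH1 or EZH2, and is known as a broad mark of genes that are not transcribed and of the sequence between genes.

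The peaks that reached the start of a member gene are introduced by sequence, because they are the ones that bear on a promoter. RefSeq promoter windows (GRCm38.p6) were held for 54 of the 71 genes, and peaks fell on the 250 bases before the start in 4 of them, all in paternal lists. These were Col11a1 (chr3:114030290-114030539) and Col9a1 (chr1:24177360-24177609) in Ezh2m-/p+ zygotes, and Col16a1 (chr4:130047590-130047839) and Col20a1 (chr2:180986285-180986534) in Ezh2m+/p+ zygotes. Over all genes most peaks on such windows were paternal too. Of peaks annotated within 1 kb of a start, 122 maternal and 564 paternal ones fell on windows in Ezh2m+/p+ zygotes. In Ezh2m-/p+ zygotes it was 228 and 817. The 4 member windows are on the plus strand and are printed from 5′ to 3′, with each CpG (the motif CG, which reads the same on both strands) in capitals.
Col11a1: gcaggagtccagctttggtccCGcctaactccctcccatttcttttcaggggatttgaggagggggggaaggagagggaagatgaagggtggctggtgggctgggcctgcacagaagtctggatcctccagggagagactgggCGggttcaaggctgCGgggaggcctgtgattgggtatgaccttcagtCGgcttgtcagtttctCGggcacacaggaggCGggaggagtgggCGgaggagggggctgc
Col16a1: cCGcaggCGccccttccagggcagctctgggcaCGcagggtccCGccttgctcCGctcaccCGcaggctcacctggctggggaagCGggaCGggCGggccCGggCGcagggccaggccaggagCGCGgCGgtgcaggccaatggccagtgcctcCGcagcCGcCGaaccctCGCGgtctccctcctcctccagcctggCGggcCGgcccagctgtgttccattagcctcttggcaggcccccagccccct
Col20a1: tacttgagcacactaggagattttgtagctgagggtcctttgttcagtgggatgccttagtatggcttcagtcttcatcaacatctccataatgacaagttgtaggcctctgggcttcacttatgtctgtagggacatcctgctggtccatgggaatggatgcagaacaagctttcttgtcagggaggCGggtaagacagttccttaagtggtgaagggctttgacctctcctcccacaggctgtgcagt
Col9a1: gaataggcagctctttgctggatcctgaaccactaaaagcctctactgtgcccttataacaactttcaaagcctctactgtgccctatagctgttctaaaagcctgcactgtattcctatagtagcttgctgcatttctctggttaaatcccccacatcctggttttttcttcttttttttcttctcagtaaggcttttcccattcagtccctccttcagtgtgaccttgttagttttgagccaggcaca
The Col16a1 window held 21 CpGs and was 75.6% G or C, and 16.3% of the 32851 promoter windows of RefSeq held as many. Col11a1 had 7 CpGs (62.4% G or C), Col20a1 had 1 (49.2%) and Col9a1 had 0 (43.6%). The median over all windows was 6 CpGs and 52.4% G or C, and 92.1% of windows held at least 1 CpG. The promoters reached by peaks thus ranged from rich in CpG to free of it. Itga6, Col26a1, Itgal and 14 further members had no window in the table, so a maternal peak at the 5′ end of Itgal could not be counted here.

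Away from the starts, a single member interval had the same start and end in both genotypes, 1 of the 101 Ezh2m+/p+ paternal member peaks (0.990%) against 384 of 17863 over the list (2.15%). It lay 6241 bp upstream of a Col6a6 start, and is shown by its central 200 bases (chr9:105835100-105835299, plus strand). Beside it stand the central 200 bases of the Ezh2m-/p+ maternal member peak of largest fold, in Itga8 (chr2:12206000-12206199, plus strand). CpGs are again in capitals.
Col6a6: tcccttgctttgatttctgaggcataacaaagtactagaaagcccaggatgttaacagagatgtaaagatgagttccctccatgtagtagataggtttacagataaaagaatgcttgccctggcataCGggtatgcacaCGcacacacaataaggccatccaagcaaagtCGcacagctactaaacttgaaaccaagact
Itga8: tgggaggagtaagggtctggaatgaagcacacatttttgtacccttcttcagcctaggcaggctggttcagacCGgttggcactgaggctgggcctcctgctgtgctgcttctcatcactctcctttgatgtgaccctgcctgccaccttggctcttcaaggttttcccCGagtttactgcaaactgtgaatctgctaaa
The Col6a6 stretch held 3 CpGs and the Itga8 stretch 2.

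More member peaks were listed in the paternal than in the maternal genome of either genotype. A number of listed peaks is not a level of the mark, which the paper reports as lower in the paternal pronucleus. In Ezh2m+/p+ zygotes, 35 maternal peaks in 20 genes and 101 paternal peaks in 25 genes were assigned to collagen and integrin genes. In Ezh2m-/p+ zygotes there were 60 maternal peaks in 38 genes and 127 paternal peaks in 27 genes. The lists themselves differed in size in the same order, with 5744, 17863, 9606 and 22823 peaks. When each list was reduced to its 5744 peaks of largest fold (equal folds taken in order of position), the order turned round, with 35 maternal and 27 paternal member peaks in Ezh2m+/p+ zygotes and 44 and 26 in Ezh2m-/p+ zygotes. In the full lists, member peaks were a like share of each, although Col11a1 and Itga6 held 40.6% and 43.3% of the paternal member peaks. They made up 0.609% of the Ezh2m+/p+ maternal peaks (95% Wilson interval 0.438 to 0.846), 0.565% of the paternal peaks (0.466 to 0.687), and 0.625% (0.486 to 0.803) and 0.556% (0.468 to 0.662) of the Ezh2m-/p+ maternal and paternal peaks. These intervals overlap. Without Col11a1 and Itga6 the paternal shares were 0.337% and 0.316%, and with lists of equal size the shares were 0.609%, 0.470%, 0.766% and 0.453%. They cover the counting of peaks only, and peaks of 1 gene are not independent.

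Of the 71 member genes, 28.2% had a peak in the Ezh2m+/p+ maternal list, where 14.6% of all protein-coding genes had one. The shares were 35.2% against 20.3% in the Ezh2m+/p+ paternal list, 53.5% against 21.1% in the Ezh2m-/p+ maternal list and 38.0% against 23.8% in the Ezh2m-/p+ paternal list. Member genes are long, with a median of 80.8 kb against 17.4 kb for all protein-coding genes, and the part of length in these shares was not tested. Counted per length of gene body, the 7.38 Mb of member genes held 4.20 and 9.76 Ezh2m+/p+ maternal and paternal peaks per Mb, against 3.06 and 8.43 in all protein-coding genes. In Ezh2m-/p+ zygotes the densities were 6.37 and 11.9 per Mb against 4.97 and 10.7. Per Mb the members thus lay closer to the other genes than per gene. Without Col11a1 and Itga6 the paternal densities were 7.07 and 8.62 per Mb, below those of all protein-coding genes, and the maternal ones were 4.38 and 6.64. The 14 members with no assigned peak had a median length of 29.6 kb, and the 57 with a peak had a median of 105 kb.

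Collagen genes had 17 maternal and 82 paternal peaks in Ezh2m+/p+ zygotes and 34 and 103 in Ezh2m-/p+ zygotes. The paternal shares were 82.8% (95% Wilson interval 74.2 to 89.0) and 75.2% (67.3 to 81.7), against 75.7% and 70.4% of all peaks, and without Col11a1 they were 76.1% (65.0 to 84.5) and 65.3% (55.5 to 74.0). Integrin genes had 18 and 19 peaks in Ezh2m+/p+ zygotes and 26 and 24 in Ezh2m-/p+ zygotes, of which 51.4% (35.9 to 66.6) and 48.0% (34.8 to 61.5) were paternal. Most paternal integrin peaks were those of Itga6, without which 6 of 24 (25.0%) and 8 of 34 (23.5%) integrin peaks were paternal. Taking both genotypes together, 28 member genes had maternal peaks only, 12 had paternal peaks only and 17 had both. Over all genes with a peak, 4751 had maternal peaks only, 4605 paternal peaks only and 2116 both. Among the integrins, 14 genes were maternal only and 2 (Itga6 and Itgb1) paternal only. Among the collagens, 14 were maternal only and 10 paternal only.

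**Figure D1:**
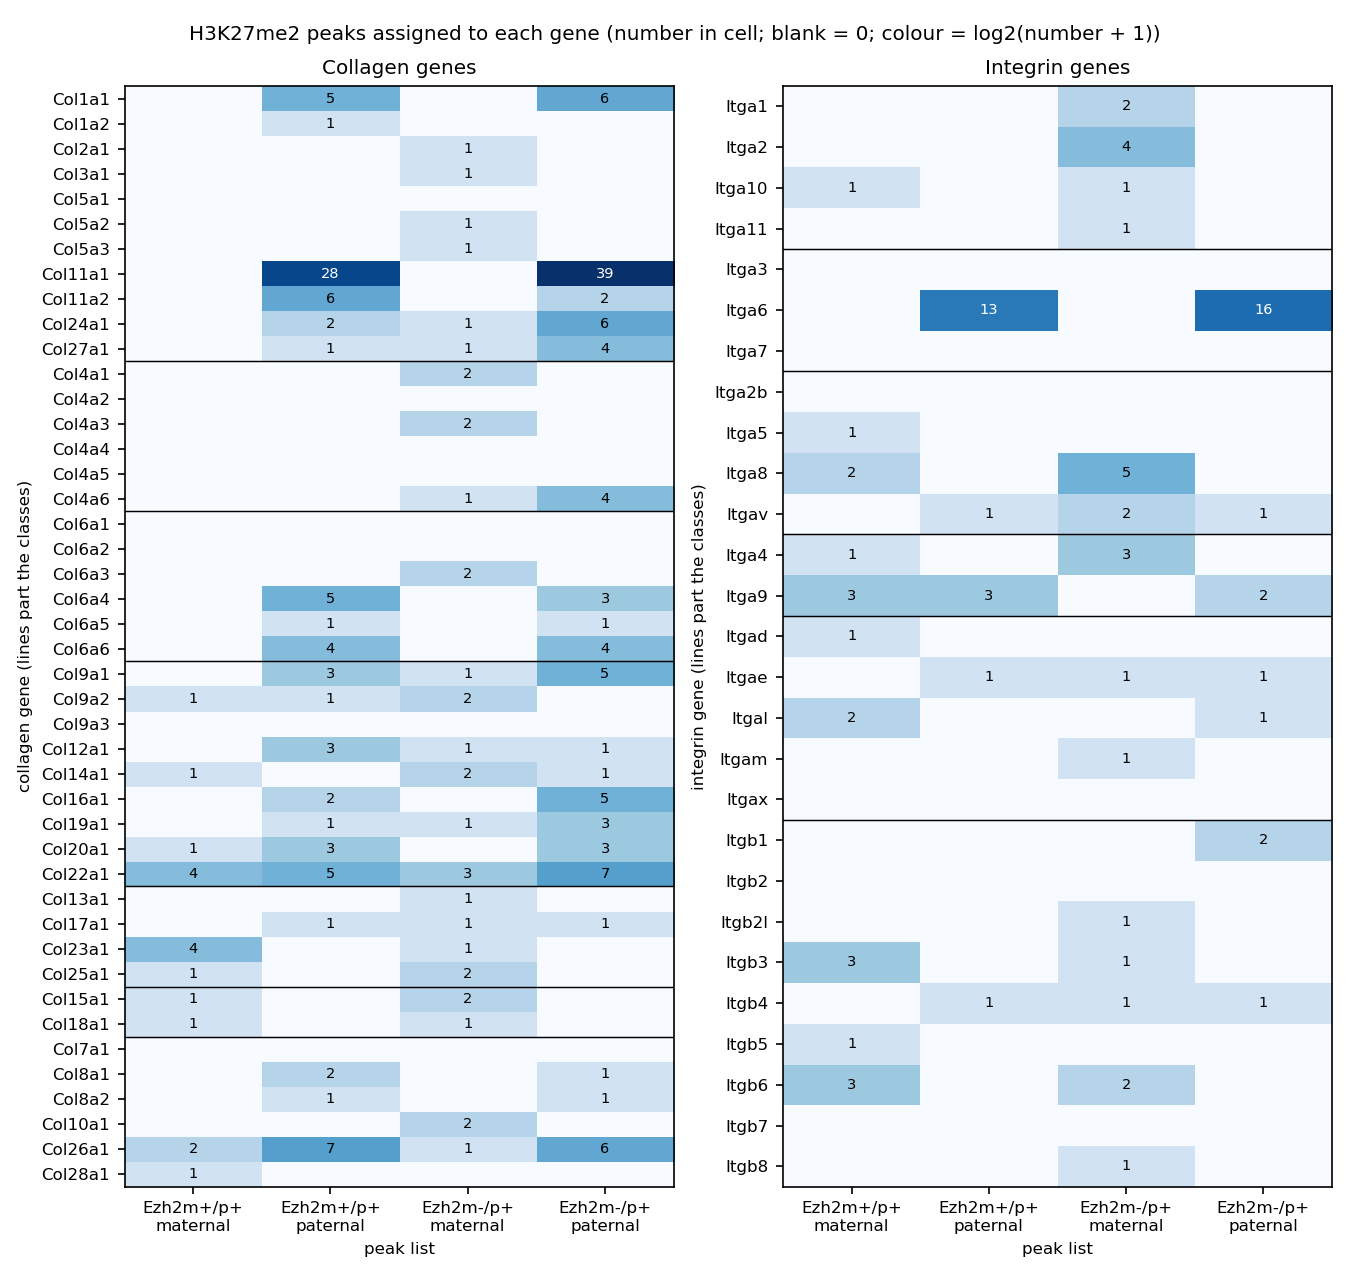
Number of H3K27me2 peaks assigned to each of 44 collagen genes (left) and 27 integrin genes (right) in the 4 peak lists, with the number in each cell and the colour on a log2(number + 1) scale. Col11a1 (28 and 39 peaks) and Itga6 (13 and 16) stand out in the paternal lists and have none in the maternal lists.

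Among the fibrillar collagens, the paternal peaks were concentrated in Col11a1, which encodes a chain of the type XI collagen of cartilage fibrils. The gene had 28 peaks in the Ezh2m+/p+ paternal list, 39 in the Ezh2m-/p+ paternal list and none in either maternal list. It spans 190 kb of chromosome 3 (114030540 to 114220718, plus strand). Most of its peaks lay before the gene, with 17 of 28 and 25 of 39 upstream of the gene body, 10 and 13 in it, and 1 in each list downstream. The peaks reached from 113845001 to 114257199 in Ezh2m+/p+ zygotes, where they covered 60.0 kb, and from 113830401 to 114227199 in Ezh2m-/p+ zygotes, where they covered 120 kb. In either genotype the 100 kb windows from 300 kb upstream to 100 kb downstream of the 5′ end held 4 to 13 paternal peaks each, and the windows further upstream, as far as 5 windows from the 5′ end, held none. The mark was thus listed as a string of peaks before the gene and in its 5′ part, and 20 peaks of each genotype overlapped a peak of the other. A peak on the start itself was listed only in the Ezh2m-/p+ paternal list (114029201 to 114031199, fold over input 63.0). The peaks of largest fold were an Ezh2m+/p+ peak at 114096401 to 114100599 (fold 120) and an Ezh2m-/p+ peak at 113949201 to 113951599 (fold 173).

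The other fibrillar collagens had few peaks. Col11a2, another chain of type XI collagen, had 6 Ezh2m+/p+ and 2 Ezh2m-/p+ paternal peaks on chromosome 17 and no maternal peak. Of the Ezh2m+/p+ peaks, 5 followed each other through the gene from 34043801 to 34067799 and 1 lay downstream, and an Ezh2m-/p+ peak of 8999 bp (34063201 to 34072199) covered its 3′ part. Col1a1, the main chain of type I collagen in bone and skin, had 5 and 6 paternal peaks, all of them distal, between 69.5 and 6.92 kb before the gene. Its partner Col1a2 had 1 Ezh2m+/p+ paternal peak. Col24a1 had paternal peaks in both genotypes (2 in Ezh2m+/p+, 6 in Ezh2m-/p+) with 1 Ezh2m-/p+ maternal peak, all inside the gene. Both Ezh2m+/p+ peaks (introns 24 and 25 of 59) overlapped Ezh2m-/p+ peaks, of which the larger had a fold of 142. Col27a1, a fibrillar collagen of cartilage, had 1 Ezh2m+/p+ paternal, 1 Ezh2m-/p+ maternal and 4 Ezh2m-/p+ paternal peaks. Col2a1, Col3a1, Col5a2 and Col5a3 had 1 peak each, all in the Ezh2m-/p+ maternal list. None of the 11 fibrillar collagen genes had an Ezh2m+/p+ maternal peak, which allows a share of up to 27.3%, above the 14.6% of all protein-coding genes.

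Itga6 encodes the alpha 6 subunit, which binds laminin and, with beta 4, anchors epithelial cells at hemidesmosomes. Its paternal peaks numbered 13 (Ezh2m+/p+) and 16 (Ezh2m-/p+), and it had no maternal peak. The gene spans 113 kb of chromosome 2 (71745616 to 71858416, plus strand). Unlike those of Col11a1, its assigned peaks lay almost wholly in the gene body (12 of 13 and 14 of 16). They covered 59.6 kb in Ezh2m+/p+ zygotes and 90.0 kb in Ezh2m-/p+ zygotes, which is 56.3% and 73.3% of the stretch from the first to the last peak. The longest member peak of each paternal list lay here, at 71784801 to 71804599 (19799 bp, fold 15.4) and at 71787001 to 71803199 (16199 bp, fold 21.2). A peak over the 5′ end of the gene was listed in Ezh2m-/p+ zygotes (71745201 to 71747399, fold 11.8). The member peak of largest fold in the Ezh2m-/p+ paternal list lay 9564 bp beyond a start near the 3′ end of Itga6 (71859001 to 71861599, fold 181). Paternal peaks did not stop at the gene, and the contrast with Col11a1 holds for assigned peaks only. In the 100 kb before Itga6 lay 10 (Ezh2m+/p+) and 13 (Ezh2m-/p+) paternal peaks, of which 1 each was assigned to it. All 6 and 13 in the 100 kb before Col11a1 were assigned to Col11a1. Each 100 kb window from 200 kb upstream to 400 kb downstream of the 5′ end of Itga6 held 8 to 16 paternal peaks in either genotype, and at most 1 maternal peak.

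**Figure D2:**
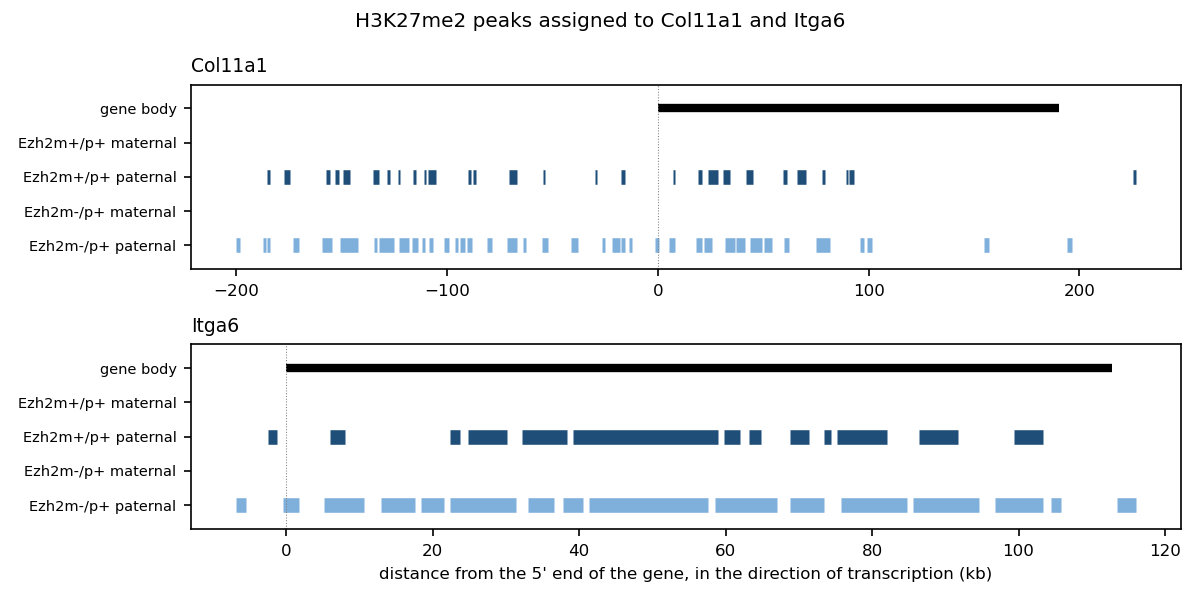
Peaks assigned to Col11a1 (top) and Itga6 (bottom) as bars to scale, by distance from the 5′ end of the gene in kb, with the gene body in black and 1 row per list. The maternal rows are empty in both genotypes, and the assigned paternal peaks lie mainly before Col11a1 but inside Itga6. Paternal peaks around Itga6 that were assigned to other genes are not drawn.

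The collagen-binding alpha subunits Itga1, Itga2, Itga10 and Itga11, which pair with beta 1, had no paternal peak in either genotype. With 4 genes this allows a share of up to 75%, and 20.3% and 23.8% of all protein-coding genes had one. Itga10 had 1 maternal peak in each genotype, and the Ezh2m+/p+ peak (96654801 to 96659399 on chromosome 3) had the largest fold of the member peaks of that list (59.0). The Ezh2m-/p+ peak lay 2201 bp from it. Itga2 had 4 Ezh2m-/p+ maternal peaks, 2 in the gene and 2 up to 21101 bp before a start. Itga1 had 2, at 92237 and 361837 bp before the start, and Itga11 had 1, at 47627 bp before the start (62627601 to 62630199 on chromosome 9, fold 35.9). Apart from Itga10, the peaks assigned to this group were in the Ezh2m-/p+ maternal list, while the body of Itga1 also held 2 Ezh2m+/p+ maternal peaks that were assigned to Pelo.

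Of the other alpha subunits, Itga8, whose product binds nephronectin in the developing kidney, had 2 Ezh2m+/p+ and 5 Ezh2m-/p+ maternal peaks. The Ezh2m-/p+ peak at 12203401 to 12208799 on chromosome 2, over exon 14 of 30, had the largest fold (102) and the greatest length (5399 bp) of the member peaks of that list. Itga4, the receptor subunit for VCAM-1, had 1 and 3 maternal peaks, all upstream, and Itga5, of the fibronectin receptor, had 1 Ezh2m+/p+ maternal peak. Itgav, which pairs with several beta subunits, had 1 paternal peak in each genotype and 2 Ezh2m-/p+ maternal peaks. Itga9, a receptor subunit for tenascin, had 3 Ezh2m+/p+ maternal peaks, 3 Ezh2m+/p+ and 2 Ezh2m-/p+ paternal peaks, all in its 294 kb body. One of its maternal peaks (118784001 to 118789799 on chromosome 9) was the longest of the Ezh2m+/p+ maternal member peaks, at 5799 bp. The paternal peaks near 200 kb into Itga9 overlapped between the genotypes.

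The alpha subunits of leukocytes had 8 peaks over all lists. Itgal, of the LFA-1 receptor, had 1 Ezh2m+/p+ maternal peak at its 5′ end (127296401 to 127298199 on chromosome 7, fold 40.2), 1 further into the gene (127300401 to 127303999, fold 42.9) and 1 Ezh2m-/p+ paternal peak in its body. Itgae, the alpha E subunit of intraepithelial T cells, had 1 peak in 3 of the 4 lists. Its paternal peaks overlapped between the genotypes, and the Ezh2m-/p+ maternal peak ended 201 bp from the paternal peak of the same zygotes. Itgad and Itgam had 1 maternal peak each.

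Among the beta subunits, Itgb6, which with alpha v activates TGF-beta, had 3 Ezh2m+/p+ and 2 Ezh2m-/p+ maternal peaks, and Itgb3, of platelets and osteoclasts, had 3 and 1. Neither had an assigned paternal peak, although the body of Itgb3 held 1 in each genotype that was assigned to another gene. No maternal peak of one genotype overlapped one of the other in these genes. Itgb4, the partner of alpha 6, had 1 paternal peak in each genotype at an internal start (115988801 to 115990399 and 115988601 to 115989999 on chromosome 11), and these overlapped. It also had 1 Ezh2m-/p+ maternal peak, upstream of the gene (115965401 to 115968599, fold 6.79). Itgb1, the partner of the most alpha subunits, had 2 Ezh2m-/p+ paternal peaks. Itgb5, Itgb2l and Itgb8 had 1 maternal peak each.

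Col22a1 and Col26a1 were the only members with peaks in all 4 lists. Col22a1, a collagen of the junction of muscle and tendon, had 4 and 5 maternal and paternal peaks in Ezh2m+/p+ zygotes and 3 and 7 in Ezh2m-/p+ zygotes. Col26a1 had 2 and 7, and 1 and 6. In neither gene did a maternal peak overlap a paternal peak. In Col26a1, most paternal peaks were centred in the first 40 kb of its 141 kb body, with 6 of 7 there (Ezh2m+/p+) and 4 of 6 (Ezh2m-/p+). The maternal peaks were centred at 42.6, 65.6 and 137 kb from its 5′ end. The other paternal peaks were centred at 92.1 kb (Ezh2m+/p+) and at 95.4 and 102 kb (Ezh2m-/p+), so the parental genomes were not parted by position. The limit of 40 kb falls between a paternal peak centred at 36.8 kb and the maternal one at 42.6 kb. In each gene 3 Ezh2m+/p+ paternal peaks overlapped Ezh2m-/p+ paternal peaks, and no maternal peak overlapped between the genotypes. Col23a1, a transmembrane collagen, had 4 Ezh2m+/p+ maternal peaks in intron 2 (with Col22a1, the most of any member in that list) and 1 Ezh2m-/p+ maternal peak over exon 5 of 29.

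**Figure D3:**
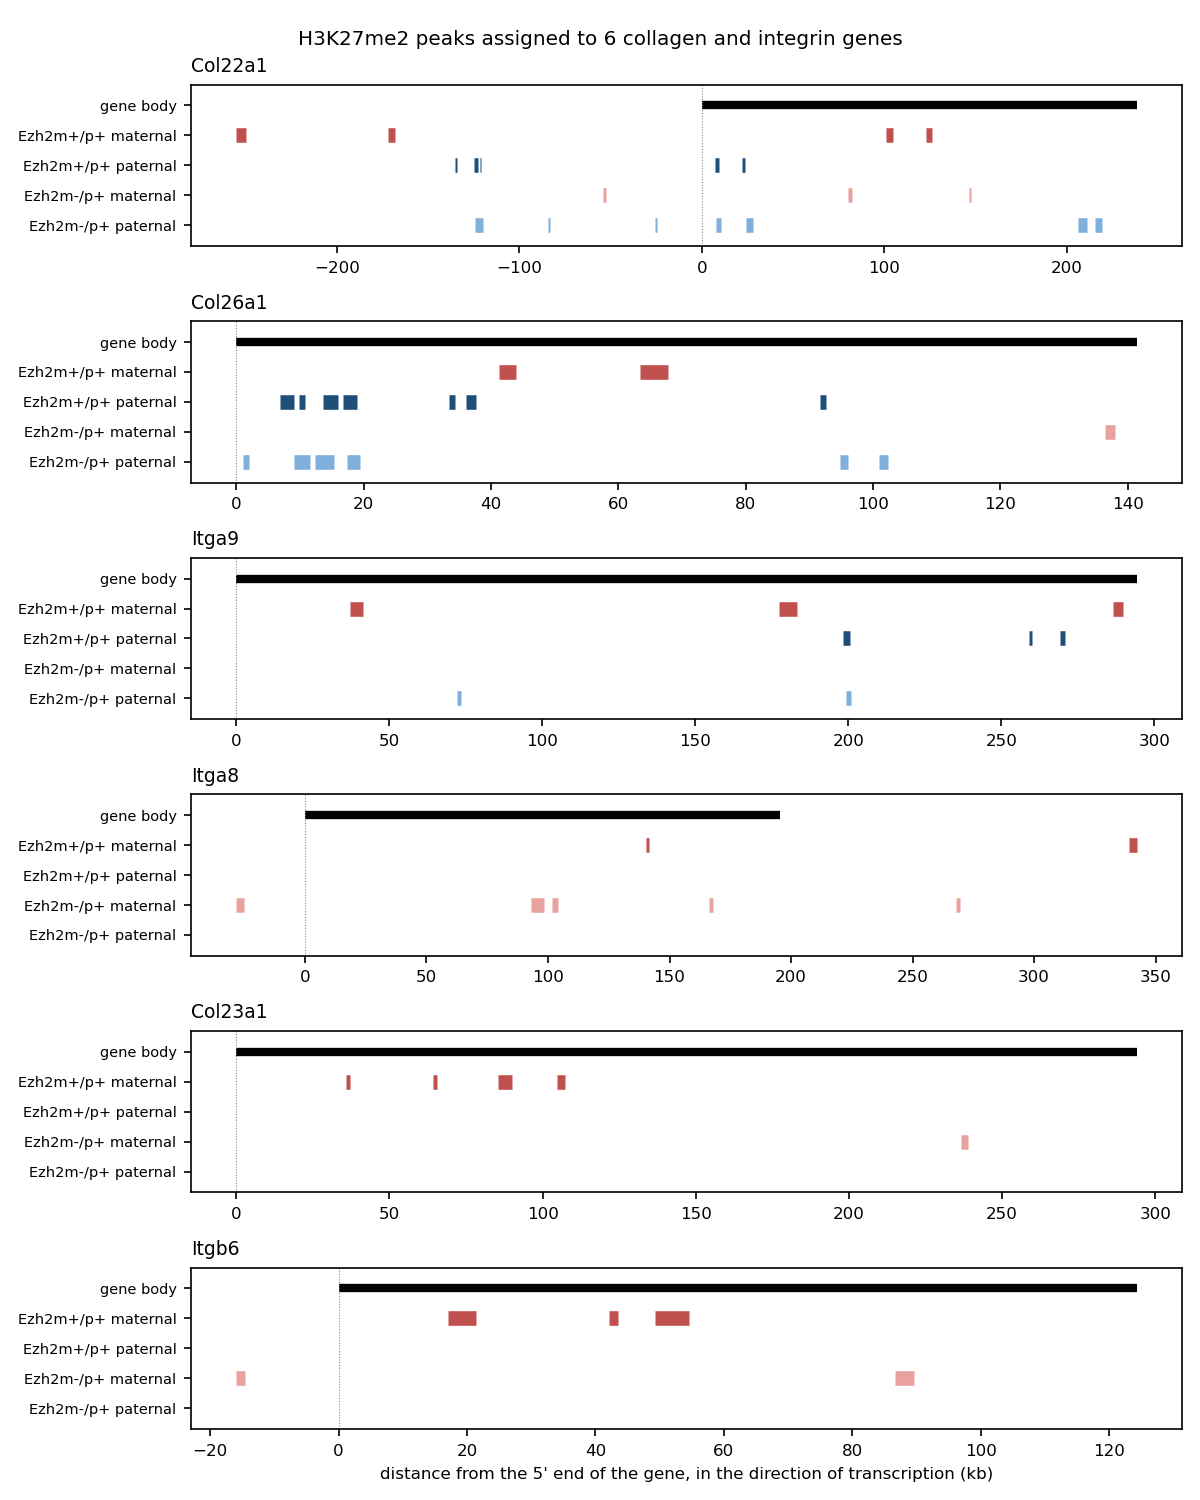
Peaks assigned to 6 member genes as bars to scale, by distance from the 5′ end of each gene in kb, with the gene body in black and 1 row per list. Col22a1 and Col26a1 have peaks in all 4 rows, Itga8, Col23a1 and Itgb6 in the maternal rows only, and no maternal bar lies over a paternal bar of the same genotype.

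Among the remaining collagens, of the 6 chains of basement membrane collagen IV, Col4a1 and Col4a3 had 2 Ezh2m-/p+ maternal peaks each, and Col4a6, on chromosome X, had 1 maternal and 4 paternal peaks, again in Ezh2m-/p+ zygotes. Neither Ezh2m+/p+ list had a collagen IV peak, which with 6 genes allows a share of up to 50%, above the 14.6% and 20.3% of all protein-coding genes. Of the collagen VI chains, the neighbours Col6a4, Col6a5 and Col6a6 had 5, 1 and 4 paternal peaks in Ezh2m+/p+ zygotes and 3, 1 and 4 in Ezh2m-/p+ zygotes. They had no maternal peak, while Col6a3 had 2 Ezh2m-/p+ maternal peaks. The 409 kb that hold Col6a4, Col6a5 and Col6a6 had 11 and 9 paternal peaks and 0 maternal peaks. The multiplexins Col15a1 and Col18a1, of basement membrane zones, had 1 and 1 maternal peaks in Ezh2m+/p+ zygotes and 2 and 1 in Ezh2m-/p+ zygotes, and no paternal peak. Of the transmembrane collagens, Col13a1, Col23a1 and Col25a1 had maternal peaks only, and Col17a1, of hemidesmosomes, had 1 peak in each list but the Ezh2m+/p+ maternal list.

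Of the fibril-associated collagens, Col9a1, of type IX collagen in cartilage, had 3 and 5 paternal peaks and 1 Ezh2m-/p+ maternal peak. Col16a1 had 2 and 5 paternal peaks and Col20a1 had 3 and 3, with 1 Ezh2m+/p+ maternal peak in Col20a1. Col12a1 had 3 Ezh2m+/p+ paternal peaks and 1 peak in each Ezh2m-/p+ list. Col19a1 had 1 Ezh2m+/p+ paternal, 1 Ezh2m-/p+ maternal and 3 Ezh2m-/p+ paternal peaks. Col14a1 and Col9a2 were mainly maternal, with 3 maternal and 1 paternal peaks each over the lists. The short-chain collagens Col8a1 and Col8a2 had 3 and 2 paternal peaks in all, Col10a1 had 2 Ezh2m-/p+ maternal peaks and Col28a1 had 1 Ezh2m+/p+ maternal peak (fold 48.3).

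No member peak overlapped a peak of the other parental genome of the same genotype. This was 0 of 35 and 0 of 101 peaks in Ezh2m+/p+ zygotes, which allows shares of up to 8.57% and 2.97%, and 0 of 60 and 0 of 127 in Ezh2m-/p+ zygotes, which allows up to 5.00% and 2.36%. Over all peaks such overlap was seen for 24 of 5744 and 40 of 9606 maternal peaks (0.418% and 0.416%) and for 25 of 17863 and 41 of 22823 paternal peaks (0.140% and 0.180%). By gene, 5 of the 40 members with a peak in Ezh2m+/p+ zygotes had one in both parental genomes (12.5%), and 12.8% of all genes with a peak did. These were Col9a2, Col20a1, Col22a1, Col26a1 and Itga9. In Ezh2m-/p+ zygotes it was 13 of 52 members (25.0%), against 15.7% of all genes. Where both genomes were listed in a gene, the peaks could lie side by side. The maternal and paternal Ezh2m-/p+ peaks of Itgav and of Col27a1 had 1 bp between them, those of Itgae had 201 bp, and the Ezh2m+/p+ peaks of Col9a2 were 401 bp apart.

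The overlap of member peaks between the genotypes was compared with that of all peaks. Of the Ezh2m+/p+ paternal member peaks, 55 of 101 (54.5%, 95% Wilson interval 44.8 to 63.8) overlapped an Ezh2m-/p+ paternal peak, against 66.1% of all peaks of that list. In the other direction it was 52 of 127 (40.9%, 32.8 to 49.6), against 45.7%. The overlapping peaks lay in 17 genes, and Col11a1 and Itga6 held 20 and 11 of the 55. Without these genes the share was 40% of 60 peaks. It was 29.2% among peaks with a fold over 10 and 26.7% when 50% of each peak had to be shared. For these alternatives the share of the whole list was not computed, so they cannot be set beside its 66.1%. None of the 35 Ezh2m+/p+ maternal member peaks overlapped an Ezh2m-/p+ maternal peak, which allows a share of up to 8.57% (upper Wilson bound 9.89%), where 9.47% of all peaks of that list did. None of the 60 Ezh2m-/p+ maternal member peaks did, which allows up to 5.00% (upper Wilson bound 6.02%), where 5.78% of the list did. The share of the list thus lay between these bounds in both cases, and the counts are too small to tell members from other peaks. When the 31 Ezh2m+/p+ maternal peaks inside member gene bodies were taken, whatever gene they were assigned to, 3.23% overlapped the other genotype.

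Recurrence of a gene asks only for an assigned peak anywhere in both genotypes, so its shares are not comparable with those of peak overlap. In the paternal genome 23 of the 29 members with a peak in either genotype had one in both (79.3%), against 66.6% of all genes. In the maternal genome 13 of 45 members did (28.9%), against 31.0%. The maternal 13 were Col9a2, Col14a1, Col15a1, Col18a1, Col22a1, Col23a1, Col25a1, Col26a1, Itga4, Itga8, Itga10, Itgb3 and Itgb6. In these genes the peaks of the genotypes stood at different places, and came within 1 kb of each other only in Col9a2 (601 bp) and Col14a1 (801 bp). A further 25 members had a maternal peak in Ezh2m-/p+ zygotes only, and 7 in Ezh2m+/p+ zygotes only. Over all genes the imbalance went the same way, with 3197 and 1541 of 6867 genes.

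Exons, introns and UTRs, of whichever gene, took 65.7% of the Ezh2m+/p+ maternal member peaks (23 of 35, 95% Wilson interval 49.2 to 79.2), against 49.2% of all peaks of the list, and 61.7% of the Ezh2m-/p+ maternal ones (37 of 60, 49.0 to 72.9), against 46.8%. In the paternal lists the shares were 45.5% (46 of 101, 36.2 to 55.2) against 41.6%, and 49.6% (63 of 127, 41.1 to 58.2) against 41.4%. Without Col11a1 and Itga6 the Ezh2m-/p+ paternal share was 62.5%. The intervals of the Ezh2m+/p+ and the Ezh2m-/p+ paternal peaks reached the value of their whole lists, and that of the Ezh2m-/p+ maternal peaks lay above it. Distal intergenic peaks were 8.57% of the Ezh2m+/p+ maternal member peaks (3 of 35) against 33.9% of the list, and 30.7%, 26.7% and 33.1% of the Ezh2m+/p+ paternal, Ezh2m-/p+ maternal and Ezh2m-/p+ paternal ones against 40.2%, 35.8% and 40.7%.

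Peaks annotated to exons made up 31.7% of the Ezh2m-/p+ maternal member peaks (19 of 60, 21.3 to 44.2) against 10.8% of the list, and 21.3% of the Ezh2m-/p+ paternal ones (27 of 127, 15.0 to 29.2) against 10.1%. In Ezh2m+/p+ zygotes the shares were 20% against 12.9% (maternal) and 16.8% against 9.59% (paternal). Collagen and integrin genes have many short exons. The members had a mean of 39.2 merged exons per gene and 3.77 per 10 kb of gene body, against 10.3 and 2.10 over all protein-coding genes, and the part of this in the exon share was not tested.

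**Figure D4:**
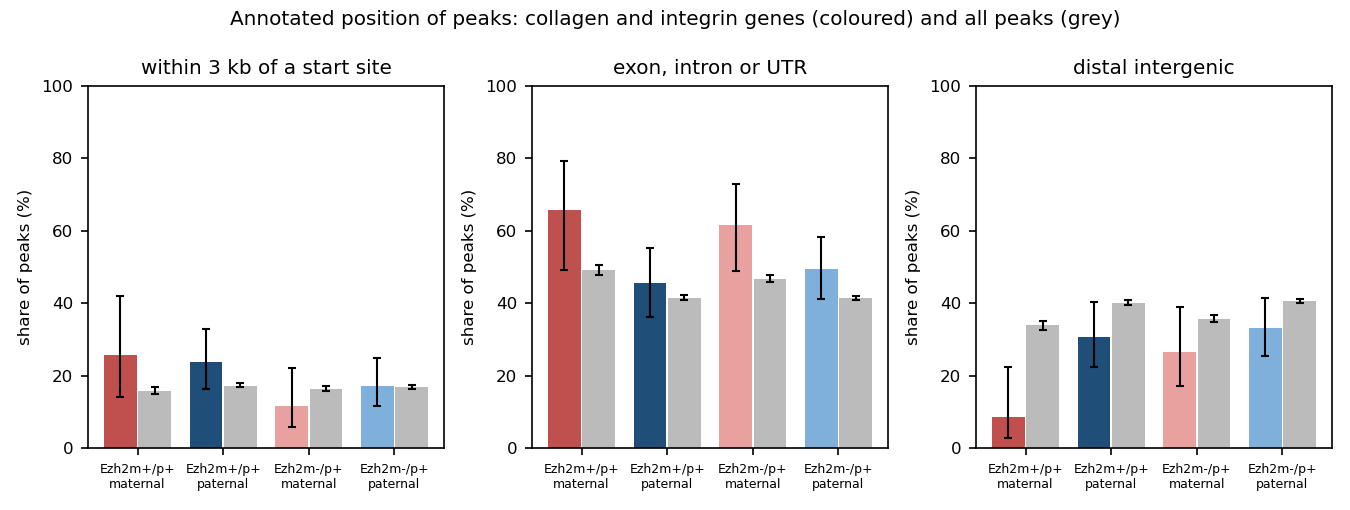
Share of peaks (%) within 3 kb of a start site, in an exon, intron or UTR, and distal intergenic, for collagen and integrin peaks (coloured) and all peaks (grey) of each list, with 95% Wilson intervals as error bars. The distal intergenic share of the Ezh2m+/p+ maternal member peaks (8.57%) lies well below that of the list (33.9%), while most other member intervals reach the value of all peaks.

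Promoter peaks, those within 3 kb of a start, made up 25.7% and 23.8% of the Ezh2m+/p+ maternal and paternal member peaks, and 11.7% and 17.3% of the Ezh2m-/p+ ones, against 15.8%, 17.3%, 16.5% and 16.9% of the lists in that order. The intervals (14.2 to 42.1, 16.5 to 32.9, 5.77 to 22.2 and 11.7 to 24.8) all reached the value of the list. With lists of equal size the Ezh2m-/p+ shares were 6.82% and 7.69%. Few of these starts lay at the 5′ end of the gene. Of the 44 member peaks annotated within 1 kb of a start, 4 (9.09%) reached the RefSeq promoter window of the gene, against 29.7% of all peaks so annotated. Only 25 of the 44 were in genes with a window, of which 4 are 16%, against 38.2% of all such peaks. In all, 8 member peaks lay within 1 kb of the 5′ end of the gene body. Those 8 were in Itgal (Ezh2m+/p+ maternal), in Col6a6, Col16a1 and Col20a1 (Ezh2m+/p+ paternal) and in Col9a1, Col11a1, Col11a2 and Itga6 (Ezh2m-/p+ paternal).

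The fold over input often took the same value for many peaks. The medians were 10.1 and 36.1 for the Ezh2m+/p+ maternal and paternal member peaks and 24.9 and 13.2 for the Ezh2m-/p+ ones, and 7.37, 36.1, 23.7 and 15.8 for all peaks of the lists in the same order. A fold of 36.1 was given to 25 of the 101 Ezh2m+/p+ paternal member peaks and a fold of 7.88 to 24 of the 127 Ezh2m-/p+ ones. The 101 and 127 paternal member peaks had 29 and 45 different folds, and the 35 and 60 maternal ones had 27 and 36. Folds are therefore ranked within a list only.

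The member peaks had median lengths of 3199 and 1599 bp in the Ezh2m+/p+ maternal and paternal lists and 1999 and 2199 bp in the Ezh2m-/p+ lists. All peaks of the lists had medians of 2999, 1799, 2199 and 1999 bp. Member peaks were thus longest in the Ezh2m+/p+ maternal list and shortest in the Ezh2m+/p+ paternal list, as were all peaks. The median share of G and C was 43.0% to 46.4% for member peaks and 44.0% to 45.6% for all peaks. The median number of CpGs per kb was higher for member peaks in each list, at 10.7 against 9.23 and 9.17 against 8.70 in the Ezh2m+/p+ maternal and paternal lists, and 10.2 against 9.29 and 9.29 against 8.19 in the Ezh2m-/p+ ones. It did not hold for the collagens alone. Their peaks had 10.7 and 8.77 CpGs per kb in the Ezh2m+/p+ maternal and paternal lists. In the Ezh2m-/p+ lists they had 8.58 and 7.7, both below the value of the list. Integrin peaks had 11 and 10.8 (Ezh2m+/p+), and 11 and 11 (Ezh2m-/p+). These differences were not tested.

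**Figure D5:**
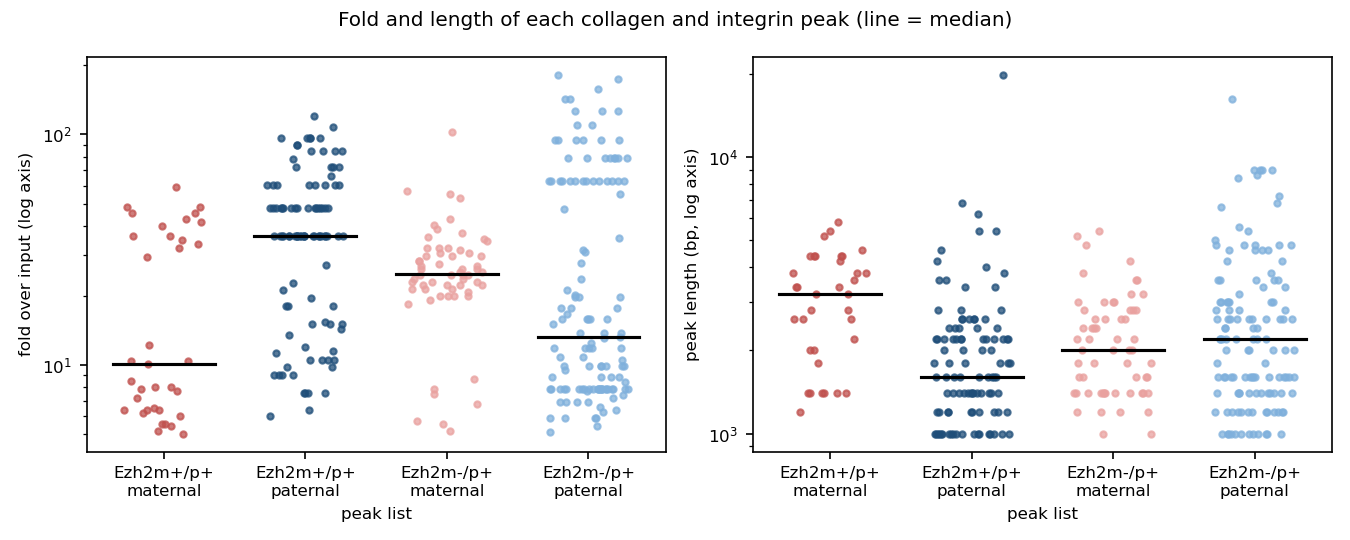
Fold over input (left, log axis) and length in bp (right, log axis) of each collagen and integrin peak, 1 point per peak and 1 column per list, with the median as a line. The folds fall on repeated values such as 36.1 in the Ezh2m+/p+ paternal list, and the longest peaks are the Itga6 peaks of 19799 and 16199 bp.

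Neighbouring members did not always share peaks. Col4a1 and Col4a2, which are transcribed from a common promoter region, had 1 Ezh2m-/p+ maternal peak in their joint 251 kb and none in the other lists. Col4a3 and Col4a4 had 3 Ezh2m-/p+ maternal peaks in 274 kb, and Col4a5 and Col4a6 had 1 maternal and 4 paternal Ezh2m-/p+ peaks in 524 kb. Itga1 and Itga2 had 2 Ezh2m+/p+ and 8 Ezh2m-/p+ maternal peaks in 269 kb and no paternal peak. Col6a1 and Col6a2 had no peak in any list, and Col3a1 and Col5a2 had 1 Ezh2m-/p+ maternal peak. These counts take any peak in the stretch, whatever gene it was assigned to. The span from Itgal to Itgad had 5 and 1 maternal and paternal peaks in Ezh2m+/p+ zygotes and 3 and 2 in Ezh2m-/p+ zygotes.

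The members with no assigned peak in any list were Col4a2, Col4a4, Col4a5, Col5a1, Col6a1, Col6a2, Col7a1, Col9a3, Itga2b, Itga3, Itga7, Itgax, Itgb2 and Itgb7. The body of Col4a4 held 1 Ezh2m-/p+ maternal peak that was assigned to another gene.

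The partners of these proteins were also covered. Of 60 genes for laminins, other matrix ligands, collagen-processing enzymes, adhesion proteins at integrin tails and other collagen receptors, 19 (31.7%) and 22 (36.7%) had an Ezh2m+/p+ maternal and paternal peak, and 22 (36.7%) and 26 (43.3%) an Ezh2m-/p+ one. In the same order of lists the shares of member genes were 28.2%, 35.2%, 53.5% and 38.0%, and those of all protein-coding genes 14.6%, 20.3%, 21.1% and 23.8%. Members lay above the partners only in the Ezh2m-/p+ maternal list. Of the 11 laminin genes, 5 and 4 had Ezh2m+/p+ maternal and paternal peaks, and 4 and 5 Ezh2m-/p+ ones. Spp1, which encodes osteopontin, had 7 and 10 paternal peaks and Hspg2, which encodes perlecan, 7 and 4, with no maternal peak in either gene. Tln2, a talin that links integrins to actin, had 6 and 5 maternal and paternal peaks in Ezh2m+/p+ zygotes and 6 and 6 in Ezh2m-/p+ zygotes. Ddr1 was the only one of the 5 other collagen receptors with a peak, with 2 and 3 paternal peaks.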

How the data were processed

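H3K27me2 was measured in 2 groups of zygotes, with 1 H3K27me2 and 1 input library each. As the paper's methods and the submitters' processing notes state, the authors trimmed reads (Trimmomatic 0.38), aligned them to mm10 with Bowtie2, removed duplicates with Picard, split them by strain variant with SNPsplit, and called peaks against the input with SICER. The stated filter was a length over 1000 bp and a fold over 5, while the shortest deposited peaks span 999 bp, and ChIPseeker gave each its annotation. The deposited lists give each peak's position, annotation and a ratio, the fold of H3K27me2 over input that the authors' caller computed. They give no read counts, so the depth behind a peak is unknown, and only reads over a strain variant can be assigned. The deposited coverage table was not used.

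Gene identifiers were matched to RefSeq symbols (11459 of 11472), and gene bodies and exons were taken from GENCODE vM21 (GRCm38). All peaks lay within the GRCm38.p6 chromosomes. Overlap meant at least 1 bp. Lists were compared by counts and shares with 95% Wilson intervals and with the same value over the whole list. For the overlaps and gene classes compared with all peaks or genes, a share of 0 is given with the upper limit that 3 counts allow, and between genotypes also with the Wilson bound. Intervals and limits cover counting error only. Functions were tested on simulated data. Python 3.11.15, pandas 2.3.3, numpy 2.4.6, scipy 1.17.1, pysam 0.24.0 and matplotlib 3.10.9 were used.

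Named with values were members with peaks in at least 3 lists, in both parental genomes of a genotype, overlapping between genotypes, or within 1 kb of a start, those with the most peaks, the 3 largest folds and the longest peak of each list, neighbouring pairs, and Itga11. Other members are given by their counts. The members, the gene lists and this rule were chosen with earlier results of these data known. Alternatives were other limits on fold and length, autosomes only, lists of equal size, assignment by gene body, distal intergenic peaks left out, reciprocal overlap, promoters by distance, and covered base pairs.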

Additional observations from a re-analysis of the deposited data

Results flagged for a closer look

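Some shares moved in opposite directions between the genotypes in the 2 parental genomes, and none of these differences was tested, since each list comes from 1 library. The share of the list assigned to collagen and integrin genes in the maternal lists was 0.609% (Ezh2m+/p+) against 0.625% (Ezh2m-/p+) and in the paternal lists 0.565% against 0.556%, and all 4 counting intervals overlapped. The share of member peaks in exons, introns or UTRs was 65.7% and 61.7% in the maternal genome and 45.5% and 49.6% in the paternal genome, and the intervals of the genotypes overlapped in each. The maternal directions depended on the setting. With a fold over 10 they turned, to 0.775% against 0.734% of the list and 61.1% against 66% in exons, introns or UTRs. With a length over 2000 bp both maternal directions stayed.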

How the results depend on the processing

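Of 164 values under the alternatives, 139 stayed within 1.5 times the count or within the counting interval. Part of these could not move, so the tally overstates how stable the results are. Among them were overlaps of 0 under settings that only remove peaks, and the smallest list at equal list size. The maternal lists without Col11a1 and Itga6 were also unchanged, since they held no peak of these genes. With a fold over 10, member peaks numbered 18 in the Ezh2m+/p+ maternal and 74 in the Ezh2m-/p+ paternal list, and the share of Ezh2m+/p+ paternal peaks overlapping the other genotype was 29.2%. With a length over 2000 bp, peaks numbered 40 (Ezh2m+/p+ paternal), 29 (Ezh2m-/p+ maternal) and 66 (Ezh2m-/p+ paternal), genes 11, 24 and 16, and the share within 3 kb of a start was 35% (Ezh2m+/p+ paternal). With lists of equal size, the paternal lists held 27 (Ezh2m+/p+) and 26 (Ezh2m-/p+) peaks in 13 and 10 genes, and the Ezh2m-/p+ paternal shares were 0.453% of the list and 7.69% within 3 kb of a start. The excess of paternal over maternal member peaks was thus turned round at equal list size, where the maternal lists held 35 (Ezh2m+/p+) and 44 (Ezh2m-/p+). Counting peaks inside gene bodies gave paternal shares of 0.403% (Ezh2m+/p+) and 0.386% (Ezh2m-/p+). With a reciprocal overlap of 50%, the overlap of Ezh2m+/p+ paternal peaks was 26.7%. Without Col11a1 and Itga6, a setting chosen after seeing the data, the paternal lists had 60 and 72 member peaks (0.337% and 0.316% of the lists), the overlap was 40%, and 62.5% of the Ezh2m-/p+ paternal peaks were annotated to an exon, intron or UTR. With autosomes only, covered base pairs, distal intergenic peaks left out and promoters by distance no value moved. For the overlap with the other parental genome, the alternatives run could only remove peaks or overlaps. That no member peak overlapped it there was therefore fixed in advance. No paired analysis was possible because each genotype had 1 library and no result comes from a test. With 35 peaks in the smallest list, shares there are imprecise, as in the 95% interval of 49.2 to 79.2% for its peaks in an exon, intron or UTR.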

Other observations

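Some peaks in the bodies of collagen and integrin genes were assigned to other genes, since the annotation goes by the nearest transcript start. There were 3 and 8 such peaks in the Ezh2m+/p+ maternal and paternal lists and 10 and 6 in the Ezh2m-/p+ lists. Among the genes they were assigned to were Pelo, which lies within Itga1, and Haspin, which lies within Itgae. Pelo had 2 such peaks in each maternal list and none in the paternal lists, and Haspin had 2 in each paternal list and 1 in the Ezh2m-/p+ maternal list. These genes were named after their values were seen.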
